A study of Homo sapiens with 2 samples.

Results

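The genes described here encode subunits of the actin-related protein 2/3 (Arp2/3) complex and of actin capping protein. They were taken by name, with Ensembl identifiers mapped to symbols, and all 10 were found among the 19362 genes of the table: ACTR2, ACTR3, ARPC1A, ARPC1B, ARPC2, ARPC3 and ARPC5 of the Arp2/3 complex, and CAPZA1, CAPZA2 and CAPZB of capping protein. The set was chosen by the levels of these same genes in these same libraries, so its values are a description and support nothing further. RNA sequencing was done on FTC-133, an established human cell line from a follicular thyroid carcinoma, transfected with a control siRNA (1 library, the control library) or with siRNA against CHI3L1 (1 library, the knockdown library). CHI3L1 encodes the secreted chitinase-like glycoprotein YKL-40. The transfected parental line is all that both groups are said to share. No replicate check exists, so each value compares these 2 libraries, and library and siRNA cannot be told apart.

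The Arp2/3 complex binds the side of an actin filament and starts a new filament from it as a branch. Its actin-related proteins, encoded by ACTR2 and ACTR3, stand in for the first subunits of the new filament, and the ARPC subunits hold them together and dock them on the mother filament. Capping protein is a dimer of an alpha subunit, from CAPZA1 or CAPZA2, and a beta subunit, from CAPZB. It closes the fast-growing (barbed) end of a filament, which keeps branches short in the actin network that pushes out lamellipodia. The same dimer also caps the short actin-related filament inside dynactin, the cofactor of the dynein motor.

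In the knockdown library the genes of both capping protein alpha subunits were lower, CAPZA2 by a ratio of 0.269 and CAPZA1 by a ratio of 0.488, while CAPZB stood at nearly the same level in both libraries. None of the 7 Arp2/3 genes differed by 1.5-fold in the deposited values. In those values ACTR2 alone among the 10 was at a higher level in the knockdown library. The other 9 were lower by amounts that ranged from under the counting error (ARPC1A, CAPZB) to 3.71-fold (CAPZA2). Of all 14815 genes averaging 1 CPM or more, 7235 were lower. With a length and GC trend (described below) subtracted, ARPC1A (0.11), ARPC3 (0.09) and CAPZB (0.35) were also above 0 on the log2 scale. The remaining members stayed below 0.

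CHI3L1, the siRNA target, stood at 140 CPM (2215 reads) in the control library and 48.6 CPM (947 reads) in the knockdown library. CPM is a count scaled to nearly the same total in both libraries, and reads are the whole numbers recovered from it. The libraries held 15837449 (control) and 19467345 (knockdown) reads. Of 10 thyroid markers, 4 averaged 1 CPM or more, among them the thyroid transcription factors PAX8 (82.8 and 71.2 CPM) and NKX2-1 (88.6 and 112 CPM), while TG, the thyroglobulin gene, was at 0.632 and 0.718 CPM. Of 8 immune and endothelial markers 3 were listed, with a summed level of 9.55 CPM in the control library and 6.10 CPM in the knockdown library, and 4 fibroblast markers summed to 60.7 and 49.7 CPM. Their part in the results below was not tested.

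Since CAPZA1 and CAPZA2 carry the largest differences and encode interchangeable subunits, their coding sequences were compared. They are of equal length (858 nt without the stop codon) and carry the same base at 666 positions (77.6%), and the longest identical run is 20 nt. That run lies near the end of the coding sequence, in the last 90 bases before the stop codon (positions 769 to 858 from the A of the start codon), printed here from the annotated transcripts (GENCODE release 29) with the 14 differing bases in capitals.
CAPZA1: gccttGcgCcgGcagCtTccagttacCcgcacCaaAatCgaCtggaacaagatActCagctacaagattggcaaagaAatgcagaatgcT
CAPZA2: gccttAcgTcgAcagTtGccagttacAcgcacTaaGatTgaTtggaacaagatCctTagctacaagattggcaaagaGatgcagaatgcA
Between CAPZA1 and CAPZB 37.2% of aligned coding positions were identical. The other related pairs lay at 68.2% (ARPC1A and ARPC1B), 69.5% (ARPC5 and ARPC5L) and 76.8% (ACTR3 and ACTR3B), with no identical run above 17 nt. The annotated transcripts are longer than the coding sequence, at 3020 nt for CAPZA1 and 5182 nt for CAPZA2, and the rest was not compared. How far reads of a pair can be told apart was not tested.

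The start regions of the capping protein genes are shown because the alpha genes were past 1.5-fold between the libraries and the beta gene was not. Each is 300 bases, from 250 before to 50 after a RefSeq transcription start (GRCh38.p14), read 5′ to 3′ on the gene's strand. Capitals mark, on either strand, GC boxes (GGGCGG), ETS motifs (CCGGAAG) and CCAAT boxes, whose letters are their name. The windows lie at chr1:112619582-112619881 (plus strand) for CAPZA1, chr7:116862337-116862636 (plus strand) for CAPZA2 and chr1:19485490-19485789 (minus strand) for CAPZB.
CAPZA1: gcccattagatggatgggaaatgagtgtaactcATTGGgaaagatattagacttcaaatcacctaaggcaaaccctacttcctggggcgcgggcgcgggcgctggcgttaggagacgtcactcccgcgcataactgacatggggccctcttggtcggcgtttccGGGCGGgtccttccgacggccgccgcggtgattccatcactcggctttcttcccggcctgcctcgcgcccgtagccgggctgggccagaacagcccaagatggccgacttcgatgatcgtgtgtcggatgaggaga
CAPZA2: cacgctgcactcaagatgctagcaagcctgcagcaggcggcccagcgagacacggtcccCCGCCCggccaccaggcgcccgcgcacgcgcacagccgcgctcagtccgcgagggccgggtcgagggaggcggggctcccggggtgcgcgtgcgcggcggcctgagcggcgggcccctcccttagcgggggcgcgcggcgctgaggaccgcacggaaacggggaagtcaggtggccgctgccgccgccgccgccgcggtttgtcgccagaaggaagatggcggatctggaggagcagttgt
CAPZB: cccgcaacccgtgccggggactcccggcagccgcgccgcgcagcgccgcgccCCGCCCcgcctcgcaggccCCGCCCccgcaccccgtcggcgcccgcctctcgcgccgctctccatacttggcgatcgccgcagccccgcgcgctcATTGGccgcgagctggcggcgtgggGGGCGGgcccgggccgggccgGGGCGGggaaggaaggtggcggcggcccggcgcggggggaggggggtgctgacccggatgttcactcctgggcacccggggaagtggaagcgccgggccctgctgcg
All 3 windows are rich in G and C, at 60.7% for CAPZA1, 75.3% for CAPZA2 and 82% for CAPZB. CAPZA2 holds 1 GC box and no CCAAT box, CAPZA1 holds 1 of each, and CAPZB holds 4 GC boxes and 1 CCAAT box. Of 9 members with a start region in the RefSeq table (12 windows), 11 windows held a GC box, 5 a CCAAT box and 3 an ETS motif, against 45.0%, 34.6% and 10.3% of all 35116 windows of the same length. None of the 12 held a TATA box (TATAAA, 11.5% of all windows), a TEAD motif (GGAATG, 14.03%) or a CArG box, the site of serum response factor (1.29%). These are letter matches only.

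CAPZA2 (ENSG00000198898, chromosome 7, 116811070 to 116922049, plus strand, GRCh38) encodes the alpha-2 subunit. It stood at 771 CPM (12193 reads) in the control library and at 208 CPM (4051 reads) in the knockdown library. The ratio was 0.269, with a 95% counting interval of 0.260 to 0.279. Intervals here are exact, cover counting error only and take reads as independent molecules. On the log2 scale with 1 CPM added to each library (the log2 fold used below), the difference was −1.89. Of the 1994 named genes averaging 100 CPM or more, it had the 23rd lowest log2 fold. In bulk RNA, fewer cells that express a gene and less of its RNA per cell cannot be told apart.

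CAPZA1 (ENSG00000116489, chromosome 1, 112619173 to 112671619, plus strand) encodes the alpha-1 subunit. It stood at 386 CPM (6107 reads) in the control library and 188 CPM (3672 reads) in the knockdown library, a ratio of 0.488 (0.468 to 0.508) and a log2 fold of −1.03. Its fold was the 169th from the lowest of the same 1994 genes. Exons of ST7L on the opposite strand cover 20.7% of the CAPZA1 transcript. The strand setting of the counting is not given, so CAPZA1 reads are uncertain to that extent. There are 5 pseudogenes named for CAPZA1, none of them among the listed genes, and their effect on its reads was not tested. ST7L itself had 249 reads in the control library and 264 in the knockdown library.

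CAPZB (ENSG00000077549, chromosome 1, 19338776 to 19485539, minus strand) encodes the beta subunit. It stood at 297 CPM (4704 reads) and 293 CPM (5705 reads), a ratio of 0.984 whose interval (0.946 to 1.02) held 1. A difference that falls within that interval was not detectable at this depth.

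**Figure D1:**
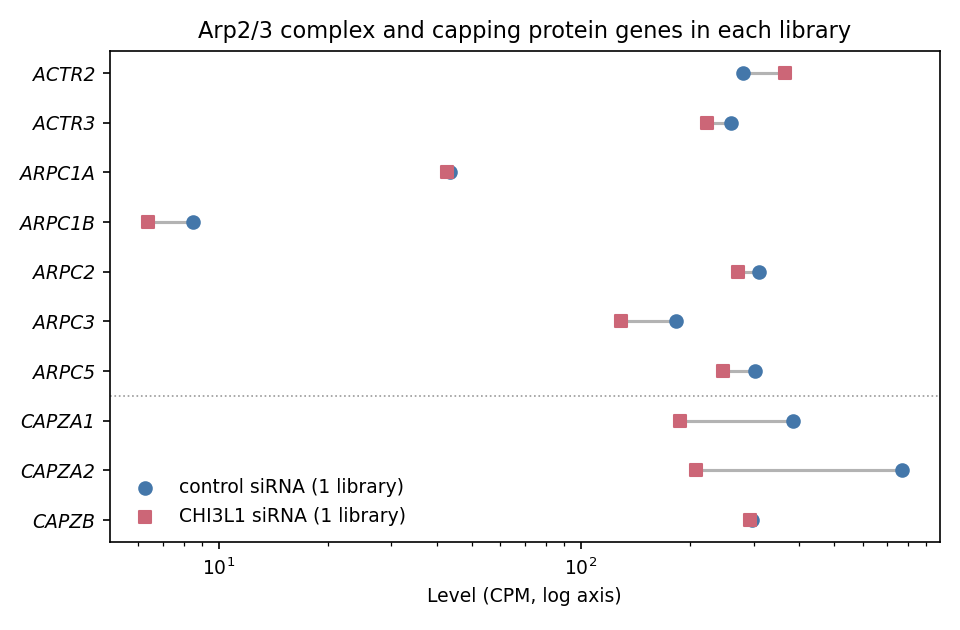
Level of each member in CPM (log axis) in the control siRNA library (circles) and the CHI3L1 siRNA library (squares), 1 library each, with Arp2/3 genes above the dotted line and capping protein genes below it. CAPZA2 (771 and 208 CPM) and CAPZA1 (386 and 188 CPM) have the widest gaps, and the symbols of CAPZB and ARPC1A nearly coincide.

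Within a library, the ratio of subunit reads does not depend on how the libraries were scaled to each other. In the control library there were 3.89 reads (3.77 to 4.02) of the alpha genes together for each CAPZB read. In the knockdown library there were 1.35 (1.31 to 1.40). Per kilobase of the annotated transcripts, the alpha genes together stood at 0.798 of the CAPZB level in the control library and 0.30 in the knockdown library. That scale rests on an 858 nt transcript for CAPZB, and with the length of all annotated exons the values were 2.01 and 0.778. The alpha-to-beta ratio was thus lower in the knockdown library on either length, while its level depends on the length used.

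The alpha genes also differed from each other. CAPZA1 held 33.4% (32.7% to 34.1%) of the reads of the CAPZA1 and CAPZA2 pair in the control library and 47.5% (46.4% to 48.7%) in the knockdown library. The intervals do not overlap. Per kilobase of transcript CAPZA2 was the higher of the pair in the control library (149 against 128 CPM per kilobase) and CAPZA1 in the knockdown library (62.4 against 40.1). By all annotated exons CAPZA1 was the higher in the control library (93.5 against 91.5) and in the knockdown library (45.6 against 24.7). Which of the pair leads in the control library thus depends on the length used.

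**Figure D2:**
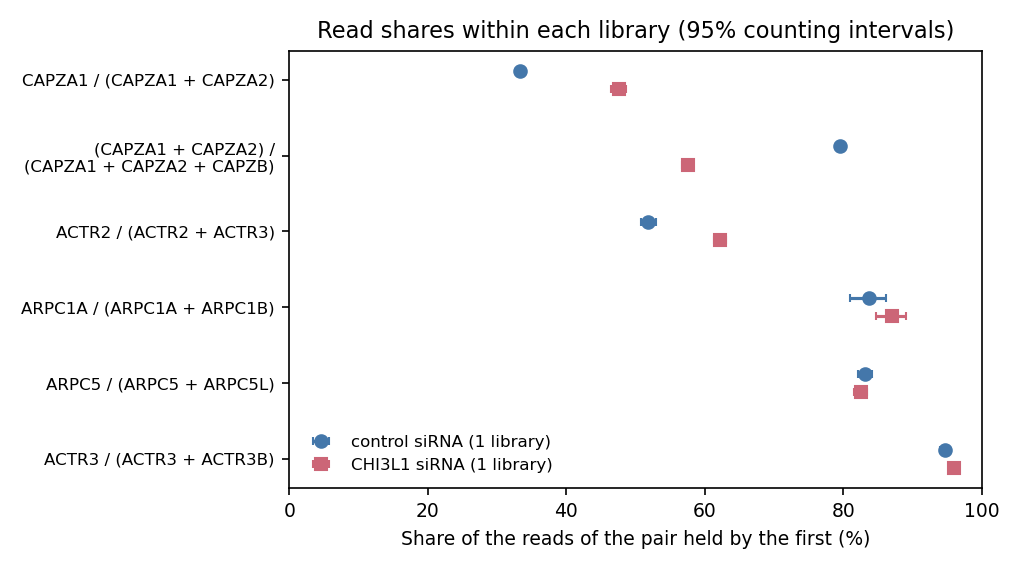
Share of reads (%) held by the gene or genes before the slash, of all reads of the genes in brackets, in the control siRNA library (circles) and the CHI3L1 siRNA library (squares), 1 library each, with exact 95% intervals that cover counting error only. CAPZA1 moves from 33.4% to 47.5% of its pair, the alpha genes from 79.6% to 57.5% of capping protein reads and ACTR2 from 51.9% to 62.2% of ACTR2 and ACTR3 reads, while ARPC5 stays at 83.2% and 82.5% of its pair. Shares are not adjusted for transcript length, and per kilobase ARPC5 held 47.6% and 46.4%.

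Of the 10 members, 2 were at least 1.5-fold lower (CAPZA1 and CAPZA2) and 0 were at least 1.5-fold higher. Of all 14815 genes averaging 1 CPM or more over both libraries, 13.4% were lower and 7.73% higher by 1.5-fold or more, so the share of members past that fold is near the background. Both alpha genes were also past 2-fold, as were 4.41% of all genes on the lower side and 1.03% on the higher side. CAPZA1 lay close to that line, and the interval of its ratio (0.468 to 0.508) held a 2-fold difference. The median log2 fold was −0.26 over the 10 members, −0.22 over the 7 Arp2/3 genes and 0.01 over all genes tested.

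**Figure D3:**
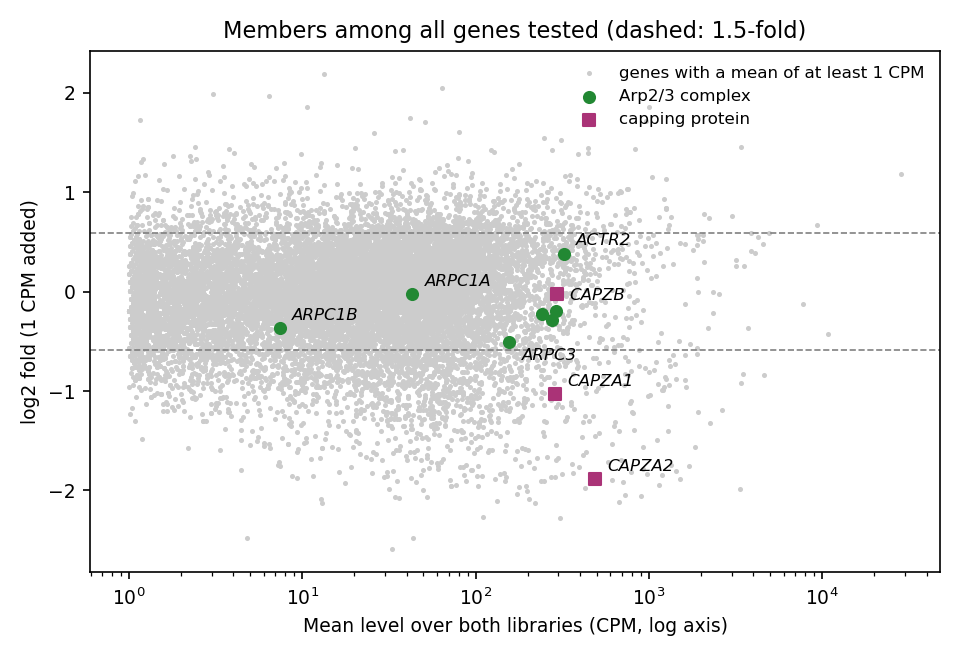
Log2 fold of CHI3L1 siRNA over control siRNA (1 CPM added, vertical axis) against the mean level over both libraries (CPM, log axis) for 14815 genes (grey), with Arp2/3 genes as circles and capping protein genes as squares. CAPZA2 (−1.89) and CAPZA1 (−1.03) lie below the dashed 1.5-fold line, and the other 8 members lie between the dashed lines.

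The genes of the actin-related proteins differed in opposite directions in the deposited values. ACTR2 (ENSG00000138071, chromosome 2, 65227753 to 65271253, plus strand), which encodes Arp2, stood at 280 CPM (4434 reads) in the control library and 366 CPM (7132 reads) in the knockdown library, a ratio of 1.30 (1.26 to 1.35). ACTR3 (ENSG00000115091, chromosome 2, 113889960 to 113962596, plus strand), which encodes Arp3, stood at 260 CPM (4117 reads) and 223 CPM (4340 reads), a ratio of 0.855 (0.819 to 0.893). The libraries therefore held 1.08 ACTR2 reads for each ACTR3 read (1.03 to 1.12, control) and 1.64 (1.58 to 1.71, knockdown). The intervals of both genes exclude a ratio of 1, and neither gene was past 1.5-fold in these values. With the length and GC trend described below subtracted, ACTR3 moved from a log2 fold of −0.22 to −0.03, and ACTR2 from 0.38 to 0.59.

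ARPC2 and ARPC4 encode the pair of subunits at the core of the complex that clamps the mother filament. ARPC2 (ENSG00000163466, chromosome 2, 218217094 to 218254356, plus strand) stood at 310 CPM (4907 reads) and 271 CPM (5292 reads), a ratio of 0.875 (0.841 to 0.910). ARPC4, which was not among the 10 members, stood at 62.1 CPM (982 reads) and 60.8 CPM (1186 reads), a ratio of 0.980 (0.899 to 1.07). Its exons overlap those of the readthrough gene ARPC4-TTLL3 on the same strand (21.0% of its transcript) and of TADA3 on the opposite strand (16.1%), so its reads are uncertain.

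ARPC3 (ENSG00000111229, chromosome 12, 110434825 to 110450422, minus strand), a subunit that contacts Arp3, had the lowest log2 fold of the Arp2/3 genes, although the wide interval of ARPC1B overlaps its own. It stood at 183 CPM (2896 reads) in the control library and 129 CPM (2516 reads) in the knockdown library, a ratio of 0.705 (0.668 to 0.744) and a log2 fold of −0.50. Another annotated gene (ENSG00000258210, not analysed here) shares 9.57% of the ARPC3 transcript on the same strand, so ARPC3 reads are uncertain to that extent. ARPC5 (ENSG00000162704, chromosome 1, 183620846 to 183635757, minus strand), the smallest subunit by coding length, stood at 302 CPM (4783 reads) and 247 CPM (4825 reads), a ratio of 0.818 (0.786 to 0.852). Its paralog ARPC5L stood at 61.3 and 52.5 CPM (ratio 0.856, 0.784 to 0.936), so that ARPC5 held 83.2% and 82.5% of the pair's reads, with overlapping intervals. The annotated transcripts differ in length (7209 nt for ARPC5, 1325 nt for ARPC5L), and per kilobase ARPC5 held 47.6% and 46.4%.

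ARPC1A and ARPC1B encode alternative forms of the WD-repeat subunit, through which activators reach the complex, and lie next to each other on the plus strand of chromosome 7. ARPC1A (ENSG00000241685, 99325910 to 99366262) stood at 43.5 CPM (688 reads) and 42.8 CPM (834 reads), a ratio of 0.983 (0.888 to 1.09). ARPC1B (ENSG00000130429, 99374249 to 99394816) stood at 8.47 CPM (134 reads) and 6.36 CPM (124 reads), a ratio of 0.751 (0.583 to 0.965) whose interval is the widest of the 10. ARPC1A held 83.7% of the pair's reads (81.0% to 86.2%) in the control library and 87.1% (84.8% to 89.1%) in the knockdown library, and the intervals overlap.

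Per kilobase of the annotated transcript, ARPC1B and ARPC1A were the lowest of the 10 members in both libraries. ARPC1B was at 5.42 and 4.07 CPM per kilobase and ARPC1A at 27.8 and 27.3, while ARPC2, with a transcript of like length, was at 193 and 169. An annotated gene that joins the loci (ENSG00000284292, same strand, not analysed here) shares 76.5% of the bases of the ARPC1A transcript and 82.6% of those of ARPC1B. The sources used here do not say how reads in shared bases were counted, so the levels of this pair are uncertain.

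On the per-kilobase scale of the annotated transcripts, the order of levels in the control library was CAPZB (347 CPM per kilobase), ARPC2 (193), ARPC3 (181), CAPZA2 (149), CAPZA1 (128), ACTR2 (72.6), ARPC5 (42.0), ACTR3 (38.8), ARPC1A and ARPC1B. In the knockdown library the order was the same for the first 3 (341, 169 and 127), and then came ACTR2 (94.7), CAPZA1, CAPZA2, ARPC5 (34.3) and ACTR3 (33.1). With 1 library a group, no spread over samples sets which neighbours differ. The order also rests on the lengths: by all annotated exons, CAPZA1 (93.5), CAPZB (91.9) and CAPZA2 (91.5) led in the control library, and ARPC1B was again the lowest (2.12).

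Outside the 10, 4 measured genes were listed as further subunits. The Arp3-related ACTR3B and ACTR3C among them were lower by over 1.5-fold in the knockdown library, beside 13.4% of all genes. ACTR3C has 630 coding nt against 1254 nt for ACTR3 and ACTR3B, and whether its product joins the complex was not tested. ACTR3B stood at 14.8 CPM (234 reads) and 9.18 CPM (179 reads), a ratio of 0.620 (0.508 to 0.757). ACTR3C stood at 20.1 CPM (318 reads) and 11.6 CPM (227 reads), a ratio of 0.579 (0.486 to 0.689). ACTR3 held 94.6% (93.9% to 95.3%) and 96.0% (95.4% to 96.6%) of the ACTR3 and ACTR3B reads.

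Folds in these libraries follow transcript length, so the members were also set against genes of like length. Of 4627 protein-coding genes with a transcript above 4000 nt, where CAPZA2 (5182 nt), ACTR3 (6718 nt) and ARPC5 (7209 nt) fall, 3.98% were at least 1.5-fold lower and 0.951% at least 2-fold lower, with a median log2 fold of 0.25. Of 4942 with a transcript above 2000 and up to 4000 nt, the class of CAPZA1 (3020 nt) and ACTR2 (3861 nt), 10.1% were at least 1.5-fold lower and 3.12% at least 2-fold lower (median 0.03). Of 3091 with a transcript of at most 2000 nt, the class of the other 5 members, 28.9% were at least 1.5-fold lower (median −0.31). The classes also differ in GC content, with medians of 45.0% (longest), 50.1% and 53.7% (shortest), and were not matched on coding length. At CAPZA2, ACTR3 and ARPC5 the trend fitted in the next paragraph was −0.03, −0.20 and −0.18, under their class median of 0.25. Their class is thus not a close match, and its shares may understate how common such folds are among like genes.

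A smooth trend of log2 fold with transcript length, coding length and GC content, fitted over 12509 coding genes outside the lists, took up 36.2% of the variance. With that trend subtracted, the log2 folds were −1.86 for CAPZA2, −0.89 for CAPZA1 and 0.35 for CAPZB. The CAPZB value and its length class above rest on an 858 nt transcript, while all its annotated exons span 3238 nt. ACTR2 was then at 0.59, just past 1.5-fold, and ARPC3 moved from −0.50 to 0.09. The other 5 Arp2/3 genes lay between −0.22 (ARPC1B) and 0.11 (ARPC1A). Outside the 10, ACTR3B was then at −0.63, still past 1.5-fold, and ACTR3C at −0.30, no longer past it. The 10 members then had a median of −0.02, with 2 at least 1.5-fold lower and 1 higher, against 7.24% and 6.08% of 12660 coding genes.

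**Figure D4:**
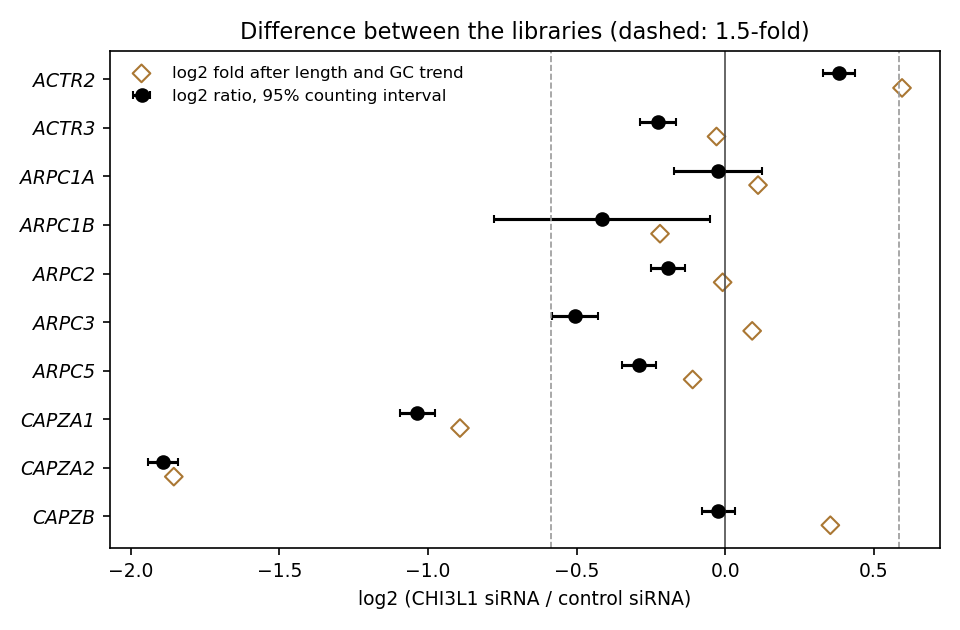
Log2 ratio between the libraries (CHI3L1 siRNA over control siRNA) with its exact 95% counting interval (filled circles) and the log2 fold after subtraction of the length and GC trend (open diamonds) for each member. CAPZA2 and CAPZA1 lie left of the dashed 1.5-fold line in both forms, CAPZB moves from −0.02 to 0.35 and ARPC3 from −0.50 to 0.09. The diamond of CAPZB rests on an annotated transcript of 858 nt.

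The wider actin pathway was described with 10 lists that hold 140 further genes. Of the 126 that averaged 1 CPM or more, 12 were lower and 7 higher by 1.5-fold or more, with a median log2 fold of 0.20. Those shares lie under the 13.4% and 7.73% of all genes. After the trend was subtracted 4 were lower and 5 higher.

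Activators of the Arp2/3 complex (22 measured) had a median log2 fold of 0.23, with 2 higher and 1 lower by 1.5-fold. WASF2, a WAVE protein that activates the complex at the leading edge, stood at 146 and 230 CPM (ratio 1.58, 1.499 to 1.66). WIPF2, a partner of WASP proteins, stood at 48.3 and 80.7 CPM, and WASF1 at 20.0 and 28.4 CPM. WASHC3, a subunit of the WASH complex on endosomes, stood at 52.9 and 27.5 CPM (ratio 0.520, 0.466 to 0.580), with a log2 fold of −0.92. After the trend was subtracted the log2 folds were 0.27 for WASF2, 0.33 for WIPF2 and −0.36 for WASHC3, none of the 22 was past 1.5-fold, and their median was 0.12.

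Inhibitors and debranching factors (7 measured) had a median of −0.17, with 1 lower and 0 higher. The lower gene was GMFB, which encodes glia maturation factor beta, a protein that removes Arp2/3 branches. It stood at 364 CPM (5753 reads) in the control library and 146 CPM (2845 reads) in the knockdown library, a ratio of 0.401 (0.383 to 0.420), and its log2 fold was −1.31, or −0.65 after the trend was subtracted. ARPIN, an inhibitor of the complex at the leading edge, stood at 36.7 and 54.6 CPM (ratio 1.49, 1.34 to 1.65), below 1.5-fold. CORO1A and CORO7 had at most 44 reads in either library, and the intervals of their ratios held 1. The readthrough gene CORO7-PAM16 shares 82.4% of the CORO7 transcript on the same strand, and ARPIN-AP3S2 shares 9.47% of the ARPIN transcript, so the reads of CORO7 and ARPIN are uncertain. CORO1A-AS1 overlaps 12.3% of the CORO1A transcript on the opposite strand.

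Regulators of capping protein (7 measured) had a median of 0.03, with 1 lower and 0 higher. TWF1, which encodes the capping protein partner twinfilin-1, stood at 312 CPM (4934 reads) and 164 CPM (3190 reads), a ratio of 0.524 (0.501 to 0.548), and its log2 fold of −0.93 was −0.49 after the trend was subtracted. MTPN, whose product myotrophin (V-1) sequesters capping protein and which was picked out after its values were seen, stood at 493 CPM (7793 reads) and 505 CPM (9843 reads), a ratio whose interval (0.994 to 1.06) held 1. CARMIL1, which takes capping protein off barbed ends, stood at 32.6 and 44.7 CPM. CD2AP stood at 84.4 and 64.3 CPM and SH3KBP1 at 109 and 129 CPM.

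Other barbed-end cappers and severing proteins (7 measured) had a median of 0.08, with 1 lower and 1 higher. CAPG, a capping protein of the gelsolin family, stood at 609 and 383 CPM (ratio 0.628, 0.609 to 0.648), and GSN, which encodes gelsolin, at 249 and 402 CPM (ratio 1.61, 1.55 to 1.67). TMOD3, which caps the other filament end, stood at 81.5 and 121 CPM. After the trend was subtracted neither CAPG (−0.47) nor GSN (0.57) was past 1.5-fold.

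Formins and Ena/VASP proteins, which lengthen filaments at barbed ends, had 15 measured genes and a median of 0.35, with 1 lower and 0 higher. The lower gene was the formin DAAM1, at 53.5 and 34.1 CPM (ratio 0.638, 0.575 to 0.707). Of the 15, 13 had a log2 fold above 0, beside 7580 of all 14815 genes tested. Coding genes with a transcript above 4000 nt had a median of 0.25. The formins DIAPH3, FMN1 and FHOD3 had ratios of 1.51 (1.34 to 1.71), 1.48 (1.35 to 1.63) and 1.38 (1.25 to 1.52). With 1 CPM added the log2 fold of DIAPH3 was 0.577, just under 1.5-fold. After the trend was subtracted the median was 0.06 and 2 genes were lower by over 1.5-fold, DAAM1 (−0.70) and the formin FHOD1 (−0.64), which was picked out after its values were seen. DIAPH3, FMN1 and FHOD3 were then at 0.49, 0.21 and 0.06.

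Genes of actin monomers and filament turnover (17 measured) had a median of 0.20, with 2 lower and 0 higher. TMSB4X, the monomer-binding thymosin beta 4, stood at 5914 and 3311 CPM, and PFN2, a profilin, at 724 and 444 CPM. Their log2 folds of −0.84 and −0.70 were −0.32 and −0.38 after the trend was subtracted, when 2 other genes were higher by over 1.5-fold, TMSB10 (0.66) and the cofilin gene CFL1 (0.59), both picked out after their values were seen. Bundling and crosslinking proteins and tropomyosins (20 measured) had a median of 0.17, with 2 higher and 0 lower. TPM4, a tropomyosin, stood at 894 and 1600 CPM (ratio 1.79, 1.75 to 1.83), and FLNA, which encodes the crosslinker filamin A, at 2226 and 3769 CPM. After the trend was subtracted TPM4 was at 1.07 and FLNA at 0.30, no longer past 1.5-fold.

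Dynactin genes other than those of capping protein (9 measured) had a median of 0.12, with 3 lower and 0 higher. DCTN6 stood at 35.7 and 16.8 CPM (ratio 0.471, 0.410 to 0.540), DCTN3 at 83.9 and 51.8 CPM, and ACTR10, the gene of Arp11 at the pointed end, at 155 and 102 CPM. DCTN1 was at a higher level in the knockdown library, at 88.6 and 118 CPM (ratio 1.33, 1.24 to 1.42), under 1.5-fold. DCTN6 shares 22.5% of its transcript with LEPROTL1 on the same strand, so its reads are uncertain. The same holds for DCTN1, which shares 14.8% of its transcript with another annotated gene on the same strand. After the trend was subtracted the log2 folds of DCTN6, DCTN3 and ACTR10 were −0.24, −0.20 and −0.33, and none of the 9 was past 1.5-fold.

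**Figure D5:**
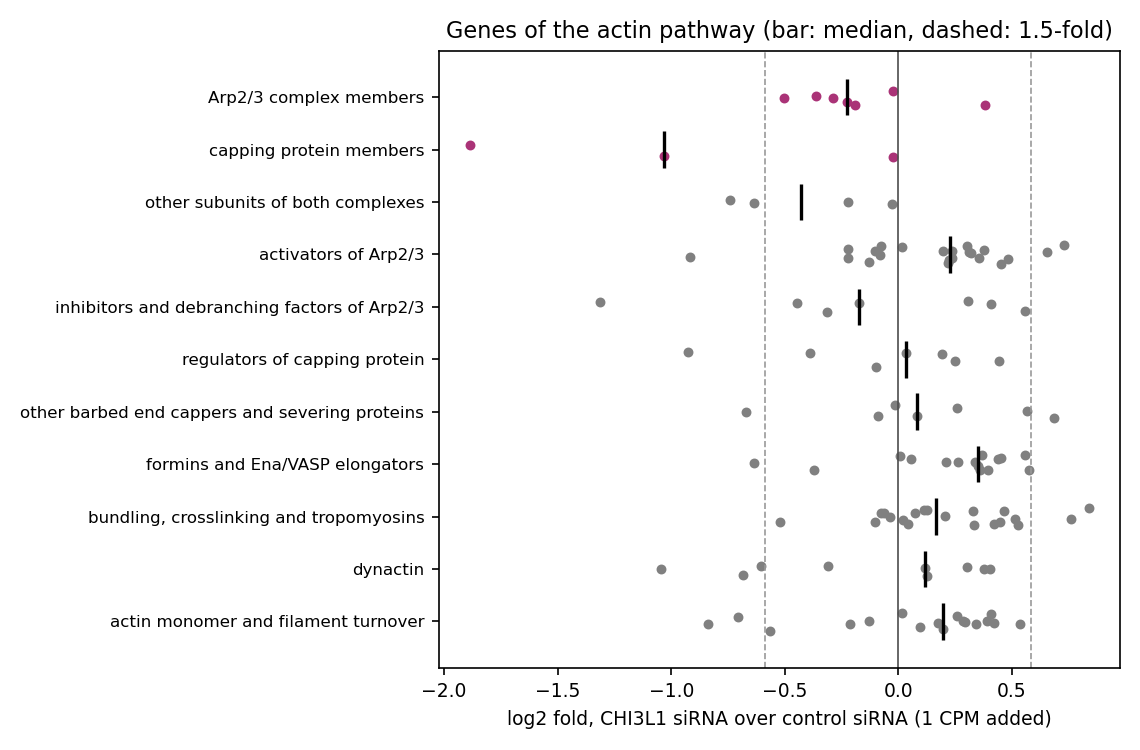
Log2 fold of CHI3L1 siRNA over control siRNA (1 CPM added) for each gene averaging 1 CPM or more (points), for each list described in the text, with the median of the list as a bar and 1.5-fold as dashed lines. The leftmost points are CAPZA2 (−1.89), GMFB (−1.31), DCTN6 (−1.04) and CAPZA1 (−1.03), while most lists have medians between 0 and 0.35.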

How the data were processed

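FTC-133 cells were transfected with control siRNA or CHI3L1 siRNA, and 1 TruSeq library was made of each (1 ug of total RNA), per the labels' protocols. The authors deposited CPM values for 19362 Ensembl genes. Tools named in the submitters' processing notes are HISAT2, featureCounts, Trimmomatic, FastQC and MultiQC, on GRCh38. The sources used here do not give versions, annotation release, strand setting or normalisation tool. Reads were recovered as the value over the CPM worth of 1 read (0.0632 in the control library, 0.0513 in the knockdown library), less an offset of 0.001, and 100% of values came out whole (within 0.01 read). No gene listed had under 6 reads in both libraries.

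Symbols were found for 19265 identifiers, and 19315 are in GENCODE release 29, which gave coordinates and 1 transcript per coding gene (principal, best supported, then longest). The trend (splines with 5 degrees of freedom, patsy 1.0.2) could be fitted for 85.5% of the 14815 tested genes. With 1 library a group no test was run. Calls are a log2 fold (1 CPM added) past 1.5-fold among genes averaging 1 CPM or more. Intervals are exact 95% intervals (Clopper-Pearson, scipy 1.17.1) conditional on both reads together. On simulated data at these depths, 89.4% of 47 genes lowered 2-fold and 0.233% of unchanged genes were called. The simulation held counting error only, without variation between cultures or the length and GC trend. These shares are thus not error rates of the calls made here.

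Members and lists were chosen with earlier results of these data known. Genes named are the members, CHI3L1, the genes listed as further subunits and, per list, up to 4 with the largest absolute fold. Genes said to be picked out after their values were seen are named too. 1 of the 10 pathway lists enters the pathway totals and is otherwise not reported here. Alternatives were pseudocounts, scalings, mean filters, a 2-fold threshold, coding genes only and the trend.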

Additional observations from a re-analysis of the deposited data

How the results depend on the processing

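With 1 library a group nothing here measures variation between cultures, and depth limits ARPC1B most. CAPZA1 and CAPZA2 were past 1.5-fold under every pseudocount, scaling, filter, 2-fold threshold and trend setting run, with log2 folds of −1.13 to −0.89 and −1.99 to −1.84. CAPZA1 fell short of 2-fold with a pseudocount of 10 CPM (−0.998) and with the trend subtracted (−0.89). Centring on the median of genes averaging 50 CPM or more lowers all folds by 0.10, and puts the members' median at −0.36, ARPC3 past 1.5-fold (−0.60) and 686 of all genes on the higher side. The other scaling, by a trimmed mean of log ratios, moved folds by only 0.00097, so it was hardly a separate check. Subtracting the trend gave a median of −0.019 and 1 higher member (ACTR2), 4 lower pathway genes and 916 lower genes in all. The median of capping protein genes apart was −1.03. A pseudocount of 10 CPM gave −1.36 for CHI3L1 (−1.51 with 1 CPM) and 1011 lower and 492 higher genes, against 1988 and 1145. At 2-fold there were 654 lower and 153 higher genes, and 2 lower and 0 higher pathway genes. Counting intervals wholly past 1.5-fold, an alternative chosen after seeing the data, left 1244 lower and 530 higher genes and 7 lower pathway genes. Per kilobase of transcript, the first gene's share (control library, then knockdown library) was 46.2% and 60.9% for CAPZA1 with CAPZA2, 47.6% and 46.4% for ARPC5 with ARPC5L, and 85.3% and 88.9% for ACTR3 with ACTR3B. No paired analysis was possible because each group has 1 library.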
